A study of Mus musculus with 12 samples.

Results

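The 10 transcripts described here are typical of red blood cell precursors or of myeloid cells, and they were followed library by library through purified lymphocytes of the mouse spleen. They are the alpha globins Hba-a1 and Hba-a2, the adult beta globins Hbb-bs and Hbb-bt, the haem synthesis enzyme Alas2, the lysozyme Lyz2, the lysosomal membrane protein Cd68, the calcium-binding proteins S100a8 and S100a9, and the receptor Csf1r. They were chosen by gene name, and they are 10 of the 41128 genes in the expression table, 5 of them erythroid and 5 myeloid. All mice were C57BL/6J animals aged 6 to 8 weeks, with no treatment or transgene given in the labels, and each library came from pooled mice. The 12 libraries form 4 groups of 3, namely female and male resting B cells lacking CD43 (libraries 1 to 3 of each sex) and female and male naive CD4+CD62L+ T cells (libraries 4 to 6 of each sex). For the T cells, magnetic depletion with antibodies that included Ter-119, an erythroid marker, and CD11b, a myeloid marker, preceded a flow cytometry sort for high CD62L, low CD44 and absent CD25. The labels do not describe how the B cells of these libraries were separated, and the study's methods name a Miltenyi Biotec kit for its own splenic B cells.

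Haemoglobin is built from alpha and beta globin chains, each holding a haem group. Alas2 is the erythroid form of the enzyme that carries out the first and rate-limiting step of haem synthesis, and globin RNA persists in reticulocytes after the nucleus is lost. The spleen of an adult mouse filters old red cells and also makes new ones in its red pulp. Lyz2 and Cd68 are abundant in monocytes and macrophages, S100a8 and S100a9 form the calprotectin complex of neutrophils and monocytes, and Csf1r is the receptor for the growth factor that macrophages need.

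Values are adjusted TPM, a length-corrected share of transcripts that the authors rescaled between libraries, so levels of different genes can be set side by side. The totals of the 12 libraries ran from 561020 to 1453940, and 11122 to 11543 genes reached a value of 1 in a library. A single noncoding RNA, Yam1 or Rn7sk, held the largest share in each library, at 11.4% to 37.4% of its total. Sequencing depth is unknown, so the precision of single values was read from the lower and upper bounds that accompany them. The labelled cell types carried their defining genes, with Ms4a1 at 732.0 to 852.0 in the B cell libraries and no higher than 1.33 in the T cell libraries, and Cd4 at 179.6 to 203.3 in T cell libraries and no higher than 0.00594 in B cell libraries. In these bulk libraries, fewer cells of a type and less RNA per cell cannot be told apart.

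The globin genes come in pairs with near-identical coding sequences, which bears on how their reads can be divided. The coding sequences of Hba-a1 (GRCm38, chr11:32283511-32284465, plus strand) and Hba-a2 (chr11:32296489-32297298, plus strand) are 426 bases without the stop codon and differ at 1 base, an identity of 99.8%. Those of Hbb-bs (chr7:103826534-103828096, minus strand) and Hbb-bt (chr7:103812524-103813996, minus strand) are 441 bases and also differ at 1 base, again 99.8% identical. Both differences lie in the coding part of exon 3, shown here because no other coding base can tell the paired transcripts apart, with the differing base in capitals. The stretches are chr11:32284263-32284388 for Hba-a1, chr11:32297080-32297205 for Hba-a2, chr7:103826668-103826793 for Hbb-bs and chr7:103812659-103812784 for Hbb-bt, each read on the strand of its gene.
Hba-a1: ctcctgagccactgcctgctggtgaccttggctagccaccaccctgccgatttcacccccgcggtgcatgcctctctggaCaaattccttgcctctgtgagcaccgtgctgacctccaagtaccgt
Hba-a2: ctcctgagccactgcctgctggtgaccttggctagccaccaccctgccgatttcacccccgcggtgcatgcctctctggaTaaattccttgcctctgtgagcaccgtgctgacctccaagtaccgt
Hbb-bs: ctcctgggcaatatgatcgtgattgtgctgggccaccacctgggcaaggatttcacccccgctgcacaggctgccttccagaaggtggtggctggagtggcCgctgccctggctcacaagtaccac
Hbb-bt: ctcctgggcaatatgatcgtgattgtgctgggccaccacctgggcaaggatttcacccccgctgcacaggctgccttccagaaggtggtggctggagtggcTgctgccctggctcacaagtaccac
Only coding bases were compared, and the untranslated parts of the paired transcripts, which may differ further, were not. How the authors' quantification divided reads between the copies is not given in the sources used here, so the value of 1 copy is less certain than the sum of its pair, and both are given below.

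The 4 globin promoters also share letters. RefSeq promoters (GRCm38.p6) were matched for 9 of the 10 genes, and the last 120 bases before each start were searched on both strands. The letters CCAAT stand in all 4 globin windows and in 21.3% of 32851 promoter windows of this length. The letters CACCC also stand in all 4, against 31.7% of all windows, and so do the letters TATAA, against 11.8%. They are not confined to the globins among the members. CCAAT also stands in the window of Cd68, CACCC in those of Alas2, Cd68 and S100a9, and TATAA in that of S100a8. The letters GATAA, found in 10.5% of windows, stand in those of Alas2 and S100a9. The windows of Hba-a1 and Hba-a2 are identical over the 117 bases that overlap, whereas those of Hbb-bs and Hbb-bt differ at 31 of 119. The Hba-a2 window (chr11:32296372-32296491, plus strand) is shown as the example, with these letters in capitals where they match.
Hba-a2 promoter: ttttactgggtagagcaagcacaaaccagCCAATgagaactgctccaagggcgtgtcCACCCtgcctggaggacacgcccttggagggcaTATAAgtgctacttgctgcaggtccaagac

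The erythroid transcripts varied widely between libraries of the same group. Hbb-bs was at 0.210, 27.3 and 26.4 adjusted TPM in female B cells 1, 2 and 3, and at 154.2, 1.94 and 74.9 in male B cells 1, 2 and 3. In T cells it was at 2.30, 2.08 and 13.7 in females 4, 5 and 6, and at 1.51, 32.3 and 5.16 in males 4, 5 and 6. The highest B cell library thus stood 733-fold above the lowest, the highest T cell library 21.3-fold above the lowest, and the ranges of B and T cells overlapped. Female B cell 1 had the lowest value of all 12 libraries, with a lower bound of 0.00720 and an upper bound of 0.772.

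Its neighbour Hbb-bt, near-identical in coding sequence, was at 2.91, 11.7 and 11.4 in female B cells and at 39.6, 3.97 and 27.9 in male B cells. In T cells it was at 0.902, 0.723 and 3.36 in females and at 0.712, 11.7 and 1.74 in males. The order of the high libraries was that of Hbb-bs, with male B cells 1 and 3 at the top among B cells and male T cell 5 at the top among T cells. Hbb-bs exceeded Hbb-bt by 2.13-fold to 4.09-fold in the T cell libraries, and by 2.31-fold to 3.90-fold in 4 B cell libraries. In female B cell 1 and male B cell 2, where both genes were low, the ratio of Hbb-bs to Hbb-bt was 0.0722 and 0.489. Summed, beta globin ran from 3.12 to 193.7 over the B cell libraries and from 2.23 to 44.0 over the T cell libraries.

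Hba-a2 was at 0.345, 19.2 and 18.8 in female B cells and at 108.2, 2.11 and 71.2 in male B cells. In T cells it was at 0.205, 2.02 and 8.39 in females and at 0.204, 21.9 and 3.25 in males. Hba-a1 was at 0.347, 11.7 and 7.93 in female B cells and at 41.7, 0.757 and 21.1 in male B cells. Its T cell values were 1.25, 1.01 and 3.21 in females and 0.423, 10.6 and 1.03 in males. Both copies were highest in male B cell 1 and, among T cells, in male T cell 5, and both were low in female B cell 1 and male B cell 2. Summed, alpha globin ran from 0.692 to 149.9 over the B cell libraries and from 0.627 to 32.5 over the T cell libraries. The ratio of summed alpha to summed beta globin had a median of 0.740 over the B cell and 0.649 over the T cell libraries, and ran from 0.222 to 1.08 over the 12 libraries.

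Alas2 (chrX:150547375-150570638, plus strand) followed the globins at a much lower level. It was at 0.354, 0.906 and 0.752 in female B cells, at 2.39, 0.266 and 2.24 in male B cells, at 0.434, 0.517 and 0.768 in female T cells and at 0.508, 0.966 and 0.671 in male T cells. Only male B cells 1 and 3 exceeded 1. The globins made up 84.9% to 99.3% of the summed erythroid transcripts, which ran from 3.36 in male T cell 4 to 346.0 in male B cell 1, a 103-fold range. As a share of each library's total, this sum was 0.0448% in male B cell 1, 0.0281% in male B cell 3, 0.000417% in female B cell 1 and 0.00135% in male B cell 2.

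**Figure D1:**
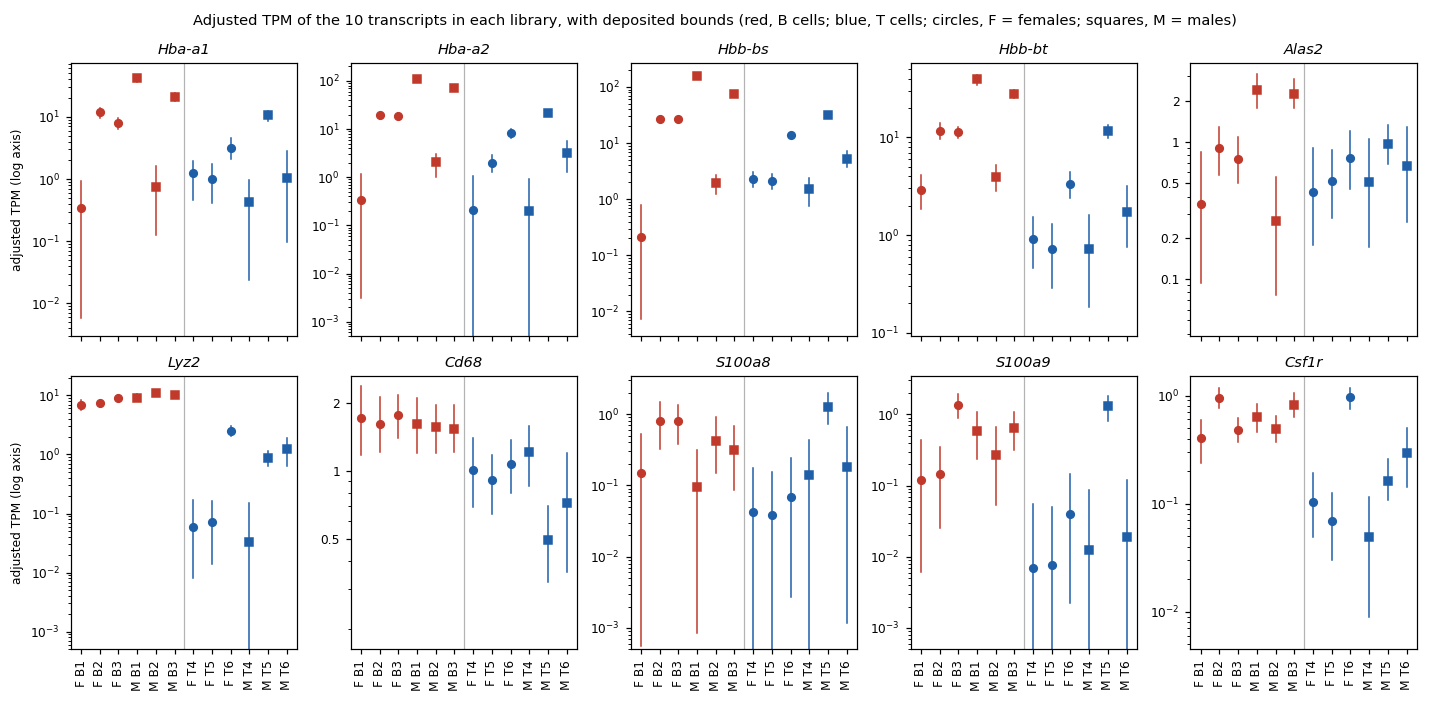
Adjusted TPM on a log axis for each of the 10 transcripts in each of the 12 libraries, with vertical lines from the deposited lower to the upper bound, which run off the lower edge where the bound is close to 0. The globins differ widely between libraries of the same group, with Hbb-bs from 0.210 to 154.2 in B cells, whereas Lyz2 lies between 6.82 and 11.1 in all 6 B cell libraries and Cd68 between 1.53 and 1.77.

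Of the myeloid transcripts, Lyz2 and Cd68 were steady across the B cell libraries, while S100a9 varied 11.2-fold there and, in T cells, Lyz2 varied 75.0-fold and S100a9 186-fold. Lyz2 (chr10:117277331-117282321, minus strand) was at 6.82, 7.31 and 9.01 in female B cells and at 9.15, 11.1 and 9.99 in male B cells. In T cells it was at 0.0593, 0.0727 and 2.52 in females and at 0.0335, 0.873 and 1.22 in males. All 6 B cell libraries lay within 1.62-fold of each other and above every T cell library. Among T cells, female T cell 6 was the highest, followed by male T cells 6 and 5, and the rest were below 0.1.

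Cd68 (chr11:69664213-69666153, minus strand) was the steadiest of the 10. It was at 1.73, 1.63 and 1.77 in female B cells, at 1.62, 1.57 and 1.53 in male B cells, at 1.02, 0.915 and 1.07 in female T cells and at 1.21, 0.495 and 0.723 in male T cells. The B cell libraries again did not overlap with the T cell libraries, with the lowest B cell library at 1.53 and the highest T cell library at 1.21. Male T cell 5, which was high for the globins, was the lowest of all for Cd68.

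S100a8 (chr3:90668978-90670035, plus strand) stayed below 1 in every library but male T cell 5. It was at 0.147, 0.798 and 0.800 in female B cells, at 0.0938, 0.418 and 0.313 in male B cells, at 0.0425, 0.0384 and 0.0683 in female T cells and at 0.139, 1.26 and 0.179 in male T cells. Its partner S100a9 (chr3:90692632-90695721, minus strand) was at 0.120, 0.146 and 1.35 in female B cells, at 0.575, 0.271 and 0.637 in male B cells, at 0.00701, 0.00774 and 0.0393 in female T cells and at 0.0122, 1.31 and 0.0187 in male T cells. Male T cell 5, with bounds of 0.811 and 1.80 for S100a9, was separate from the other T cell libraries, whose upper bounds were at most 0.145.

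Csf1r, on chromosome 18, was at 0.402, 0.952 and 0.480 in female B cells and at 0.630, 0.495 and 0.820 in male B cells. Its T cell values were 0.104, 0.0686 and 0.964 in females and 0.0487, 0.163 and 0.296 in males. Female T cell 6 was at the level of the highest B cell library, and the other T cell libraries were all below the lowest B cell library. The 5 myeloid transcripts summed to between 9.22 and 13.8 in the B cell libraries and to between 1.10 and 4.66 in the T cell libraries. Lyz2 made up 67.2% to 80.1% of that sum in B cells.

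**Figure D2:**
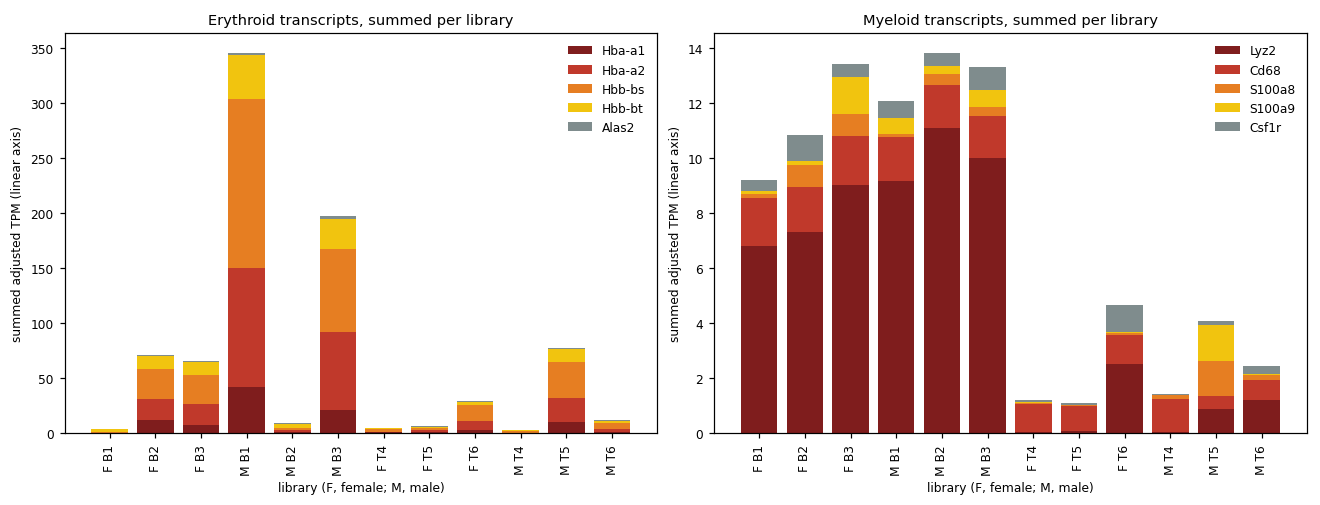
Summed adjusted TPM on linear axes from 0, stacked by transcript, for the 5 erythroid (left) and the 5 myeloid (right) transcripts in each library. The erythroid sum is 346.0 in male B cell 1 and 197.2 in male B cell 3 but 4.17 in female B cell 1, while the myeloid sum lies between 9.22 and 13.8 in all B cell libraries and reaches 4.66 among T cells in female T cell 6.

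The design asks first whether B and T cells differ. Of the 10 members, 6, namely the 4 globins, Lyz2 and Cd68, had a value of at least 1 in at least 3 libraries and entered the test across all genes (limma on log2(adjusted TPM + 1), Benjamini-Hochberg adjustment over the 12520 genes tested). Of these 6, 3 were past the adjusted p of 0.05, all higher in B cells, whereas 73.0% of all tested genes were past it in either direction and 31.4% were higher in B cells. Lyz2 was higher by 2.61 on the log2 scale (SE 0.28, limma adjusted p = 2.41e-06, n = 6 libraries of each cell type), and Cd68 by 0.48 (SE 0.09, limma adjusted p = 0.000234). Lyz2 reached 1 in all 6 B cell libraries but in only 2 T cell libraries. It thus needed its B cell libraries to reach the filter, which favoured this direction, so its call and its part in the count of 3 are given as a description. Hbb-bt was higher by 2.01 (SE 0.60, limma adjusted p = 0.00876). Lyz2 and Cd68 were the only members whose B and T cell libraries did not overlap, compared with 53.9% of tested genes without overlap in either direction and 24.2% without overlap and higher in B cells.

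The other globins had similar differences but did not pass. Hba-a2 differed by 1.95 (95% interval -0.32 to 4.21, limma adjusted p = 0.109), Hba-a1 by 1.44 (-0.32 to 3.20, limma adjusted p = 0.127) and Hbb-bs by 1.45 (-0.91 to 3.81, limma adjusted p = 0.241). These calls moved with single libraries. Without male B cell 1, the differences were 1.47 for Hba-a2, 0.98 for Hba-a1 and 0.89 for Hbb-bs, with limma adjusted p of 0.235, 0.287 and 0.478. Without male B cell 2, Hba-a2, Hba-a1 and Hbb-bs all passed, with differences of 2.75, 2.13 and 2.32 and limma adjusted p of 0.0181, 0.0131 and 0.0418. Without female B cell 1, Hba-a2 (2.60, limma adjusted p = 0.0355) and Hba-a1 (1.94, limma adjusted p = 0.0432) passed, and without male T cell 5, Hba-a2 did (2.51, limma adjusted p = 0.0488). Hba-a2 also passed when both male T cell 5 and female T cell 6 were left out, an alternative chosen after seeing the data (2.89, limma adjusted p = 0.0353). Hbb-bt and Hbb-bs differ at a single coding base, and their untranslated parts were not compared. The call for Hbb-bt alone is therefore to be read beside the beta globin sums, which overlapped between B and T cells.

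The 4 members below the filter were compared by an exact permutation test over all arrangements of the 12 libraries into 6 and 6, two-sided and unadjusted, for which the smallest attainable p is 0.00216. Csf1r was higher in B cells by 0.38 on the log2(adjusted TPM + 1) scale (exact p = 0.0433), with female T cell 6 above every B cell library. Alas2 differed by 0.29 (exact p = 0.327), S100a9 by 0.33 (exact p = 0.249) and S100a8 by 0.18 (exact p = 0.394), and for these genes the spread between libraries was as large as the difference.

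**Figure D3:**
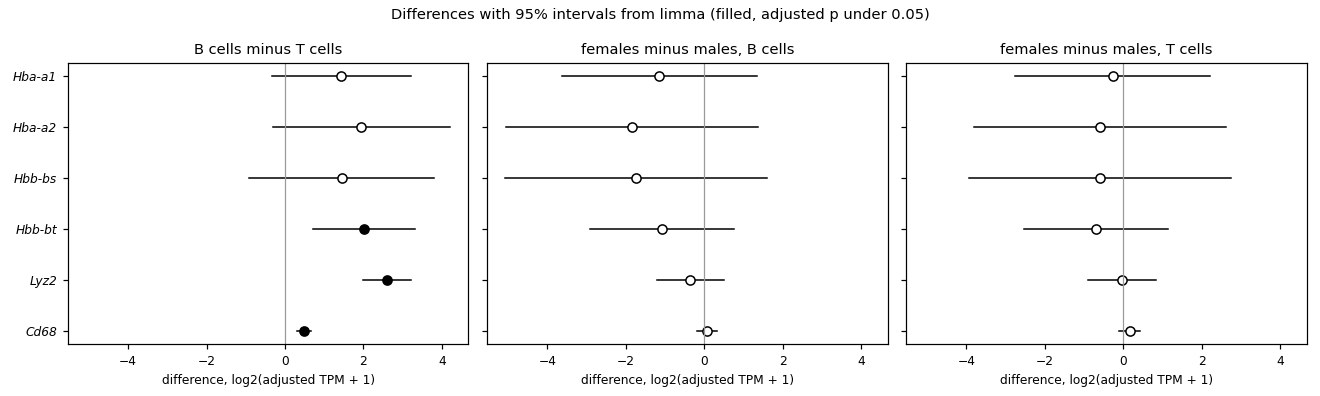
Differences in log2(adjusted TPM + 1) with 95% intervals from limma for the 6 members tested, for B minus T cells and for females minus males within each cell type, with filled points for an adjusted p under 0.05. Lyz2, Cd68 and Hbb-bt are past the threshold for B against T cells, and every interval of the sex contrasts spans 0.

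The second question is whether the sexes differ. Besides the library number, the labels carry a further number whose meaning is not given. It is the same in all libraries of a group and differs between the sexes of each cell type. This further number therefore cannot be told apart from sex in the contrasts below. Among B cells, the female minus male difference on the log2 scale was -1.84 for Hba-a2 (95% interval -5.04 to 1.37), -1.74 for Hbb-bs (-5.07 to 1.60), -1.14 for Hba-a1 (-3.64 to 1.35) and -1.08 for Hbb-bt (-2.91 to 0.75). These values moved with single libraries, from -0.54 without female B cell 1 to -3.45 without male B cell 2 for Hba-a2, from -0.23 to -3.47 for Hbb-bs and from -0.15 to -2.52 for Hba-a1 without the same libraries, and from -0.49 without male B cell 1 to -2.01 without male B cell 2 for Hbb-bt. The libraries of the sexes overlapped for each. By limma, 0 of the 6 members tested passed. Unadjusted, 0 of them were under 0.05, and the lowest value, 0.224, was that of Hbb-bt. Of all tested genes, 0.144% passed. Lyz2, lower in females, and Cd68, higher in females, were the 2 members whose 3 female and 3 male B cell libraries did not overlap, as in 7.20% of tested genes, with differences of -0.35 (95% interval -1.21 to 0.51) and 0.07 (-0.19 to 0.34). Among T cells, 0 of 6 passed by limma and 0 were under 0.05 unadjusted, the smallest being 0.204 for Cd68, against 0.104% of all tested genes that passed. S100a8, below the filter, was the 1 member without overlap there, higher in males, against 8.49% of tested genes. The Hbb-bs difference there was -0.59 (95% interval -3.93 to 2.74), and without male T cell 5 it was 0.43. For the difference between the sex effects, 0 of the 6 members and 0% of all tested genes were past the limma threshold. Unadjusted, 0 members and 295 of all genes were under 0.05, and the smallest value among the members was 0.561, for Hba-a2.

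The spread within groups was larger for the globins than for nearly all genes. The SD of log2(adjusted TPM + 1) within groups was 2.31 for Hbb-bs, 2.22 for Hba-a2, 1.72 for Hba-a1 and 1.27 for Hbb-bt, against a median of 0.13 over all genes tested. Each of these 4 values was above that of at least 99.6% of the tested genes. It was 0.59 for Lyz2, above 98.7%, 0.47 for S100a9, above 98.1%, 0.44 for Alas2, above 97.9%, 0.35 for S100a8, above 96.6%, 0.30 for Csf1r, above 94.6%, and 0.15 for Cd68, above 58.3%. Of 12 pairs of libraries of the same group, the deposited intervals were separate in 11 for Hba-a2, 10 each for Hba-a1 and Hbb-bs and 9 for Hbb-bt, and in 4 for Lyz2 and 1 for Cd68. The differences in globin level between replicates were thus larger than the deposited bounds in most pairs.

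Whether the members rose and fell together across libraries was examined within the 6 B and the 6 T cell libraries, for 5 pairs of genes and so 10 relations. Hbb-bs and Hba-a1 had a Pearson r of 0.99 in B cells (exact permutation p = 0.00139, adjusted 0.0139) and a Spearman rho of 1.00 (exact p = 0.00278, adjusted 0.0278). Without female B cell 1 and male B cell 2, the libraries farthest from the median, r was 0.98. In T cells r was 0.95 (exact permutation p = 0.00417, adjusted 0.0208) and rho 0.94 (exact p = 0.0167, adjusted 0.0556), but r was 0.50 without male T cell 5 and female T cell 6, so that relation rested on those libraries. Both genes are globins, and their values come from the same libraries and the same rescaling.

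Alas2 encodes an enzyme and is no globin. Its r with Hbb-bs was 0.92 in B cells (exact permutation p = 0.0208, adjusted 0.0521; rho 0.94, exact p = 0.0167, adjusted 0.0556) and 0.95 without female B cell 1 and male B cell 2. In T cells it was 0.97 (exact permutation p = 0.00694, adjusted 0.0231) with rho 0.83 (exact p = 0.0583, adjusted 0.146), and r was 0.80 without male T cell 5 and female T cell 6, where 4 libraries gave an exact p of 0.292. With all libraries set to the same total, the T cell r was 0.95 and its adjusted exact p was 0.0694. Same-numbered T cell libraries deviated together across genes, so the T cell permutation values, which take the 6 libraries as independent, may be too small. The relation across the erythroid and the myeloid set did not pass in either cell type. Hbb-bs and Lyz2 had an r of 0.26 over the B cell libraries (exact permutation p = 0.608, adjusted 0.608; rho 0.31, exact p = 0.564, adjusted 0.564) and 0.57 without female B cell 1 and male B cell 2. In T cells r was 0.73 (exact permutation p = 0.115, adjusted 0.192; rho 0.77, exact p = 0.103, adjusted 0.147), and 0.96 without male T cell 5 and female T cell 6.

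Within the myeloid set, Lyz2 and Cd68 had an r of -0.57 over the B cell libraries (exact permutation p = 0.229, adjusted 0.327; rho -0.77, exact p = 0.103, adjusted 0.147) and -0.27 in T cells (exact permutation p = 0.606, adjusted 0.608; rho -0.37, exact p = 0.497, adjusted 0.564). Without the 2 libraries farthest from the median these were -0.68 and -0.95. S100a8 and S100a9 had an r of 0.28 over the B cell libraries (exact permutation p = 0.603, adjusted 0.608; rho 0.31, exact p = 0.564, adjusted 0.564) and 0.99 in T cells (exact permutation p = 0.0694, adjusted 0.139; rho 0.77, exact p = 0.103, adjusted 0.147). Without the 2 libraries farthest from the median, male T cells 5 and 6, the T cell value was 0.11, and the B cell value without female B cells 2 and 3 was -0.03. The T cell relation between the calprotectin genes therefore rested on male T cell 5.

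**Figure D4:**
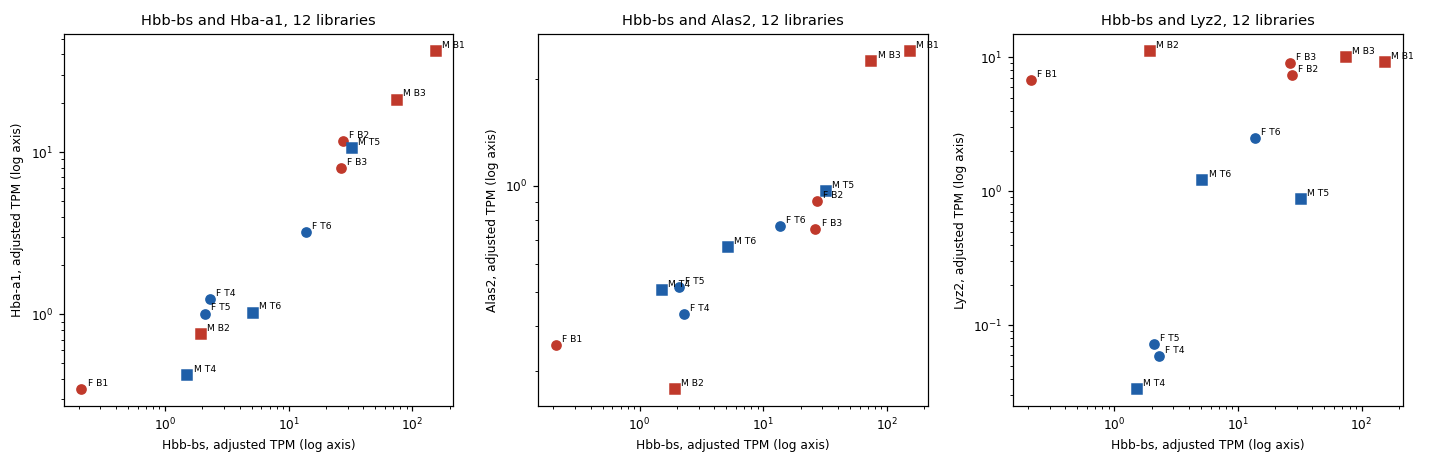
Adjusted TPM of Hba-a1, Alas2 and Lyz2 against Hbb-bs on log axes, 1 point per library (red, B cells; blue, T cells; circles, females; squares, males). Hba-a1 and Alas2 climb with Hbb-bs, while Lyz2 stays between 6.82 and 11.1 in B cells over the whole range of Hbb-bs from 0.210 to 154.2.

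Other genes of the same cell types were set beside the members. Of 25 other erythroid genes, 23 were in the table, 18 of those stayed below 1 in every library and 5 were tested. Slc25a37, the mitochondrial iron carrier, and Car2, a carbonic anhydrase, were higher in B cells (by 2.00, SE 0.07, and 0.60, SE 0.17; limma adjusted p = 3.34e-11 and 0.00599). Bpgm, which makes the haemoglobin ligand 2,3-bisphosphoglycerate, and Fech, the last enzyme of haem synthesis, were lower in B cells. Their differences were -0.78 (SE 0.06) and -0.34 (SE 0.06), with limma adjusted p of 1.56e-07 and 0.000174. Gata1, an erythroid transcription factor, was at most 0.127 in B cells and at 1.66 to 2.95 in T cells (a log2 difference of -1.67). Gata1 reached the filter only with its T cell libraries, so its direction was fixed by the filter. Slc25a37 was between 32.7 and 40.7 in all B cell libraries, so it did not share the wide spread of the globins. The median log2 difference of the 5, with Gata1 among them, was -0.34, against -0.09 over all genes tested, and is not read as a result. The red cell membrane gene Slc4a1 of the list, picked after its values were seen, stayed at or below 0.563. The sum of the list ran from 53.0 to 58.4 over the B cell libraries and from 32.7 to 36.2 over the T cell libraries.

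Of 27 other monocyte and macrophage genes, 26 were in the table and 7 reached the filter. Cybb, Mpeg1, Tyrobp, Lgals3 and Spic reached it only with their B cell libraries, so their direction was fixed by the filter, and the count of genes higher in B cells is not read as a result. Ly6c2, a monocyte surface protein, was at 3.22 to 10.7 in B cells and 1.46 to 4.66 in T cells (1.24, SE 0.25, limma adjusted p = 0.000669), and Itgam, which encodes CD11b, did not pass (-0.10, SE 0.09, limma adjusted p = 0.322). Cybb, a subunit of the phagocyte oxidase, was at 97.8 to 136.2 in the B cell libraries, against 0.648 or less in T cells (a log2 difference of 6.65). Mpeg1, a pore-forming protein, was at 11.6 to 19.3 in B cells and Tyrobp, a signalling adaptor, at 12.3 to 17.2, against at most 0.621 and 1.42 in T cells. Cybb and Mpeg1 are also expressed by B cells themselves. The list summed to 144.2 to 194.3 in the B cell libraries and to 4.48 to 19.3 in the T cell libraries.

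A pair of T cell libraries stood apart in what they carried. In female T cell 6, 23 of the 26 other monocyte and macrophage genes had their highest T cell value, and so did Pax5, Ms4a1, Cd79b and Cd79a, which mark B cells. The complement genes C1qa, C1qb and C1qc, made by tissue macrophages, were at 1.09, 0.945 and 1.29 there and at most 0.117, 0.118 and 0.140 in the other T cell libraries, and the adhesion molecule Vcam1 and the iron exporter Slc40a1, both of red pulp macrophages, were at 1.74 and 2.13 against at most 0.300 and 0.0545. These genes were named after their values were seen. They varied between the B cell libraries as well. There C1qa was at 0.286 to 1.07, C1qb at 0.194 to 0.681 and C1qc at 0.149 to 1.38. Vcam1 was at 0.160 to 1.43 and Slc40a1 at 0.000425 to 1.07 in B cells. The B cell gene Cd79b was at 2.00 in female T cell 6. In male T cell 5, all 5 erythroid transcripts were highest among T cells, as were 6 of 13 other neutrophil genes, whose sum was 0.117 to 0.521 in T cells and 0.329 to 1.24 in B cells. None of those 13 reached 1 in any library, and the 4 of highest mean, the granule genes Ngp, Mmp9 and Ltf and the receptor Csf3r, reached 0.284, 0.228, 0.215 and 0.355. Of these, Ngp at 0.281, Ltf at 0.0723 and Csf3r at 0.0125 had their highest T cell value in male T cell 5. Ngp was almost as high in male T cell 6, at 0.263, and Mmp9 was highest among T cells in female T cell 6, at 0.0242. The granule genes Mpo and Elane and the surface marker Ly6g, chosen after their values were seen, were at or below 0.00504, 0.0436 and 0.00285 in all libraries. The B cell identity genes summed to 0.900 to 5.34 in the T cell libraries and to 2609.7 or more in the B cell libraries. Without female T cell 6, the B against T cell difference was 0.50 for Cd68 (limma adjusted p = 0.000508) and 2.89 for Lyz2, which needed its B cell libraries to reach the filter. Without both female T cell 6 and male T cell 5 it was 2.95 for Lyz2 and 2.64 for Hbb-bt. The part of these other cell markers in the values of Csf1r, S100a8, S100a9 and the globins was not tested.

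**Figure D5:**
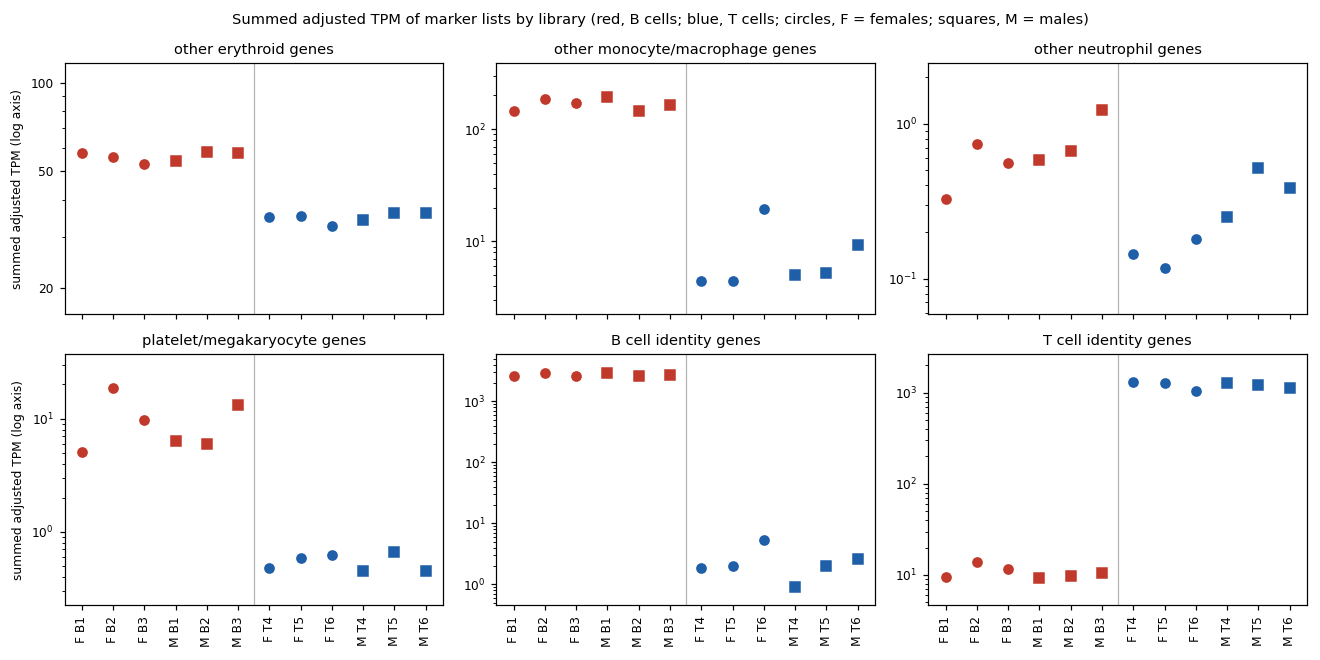
Summed adjusted TPM on log axes of 6 marker lists in each library (red, B cells; blue, T cells; circles, females; squares, males). Female T cell 6 is the highest T cell library for the other monocyte and macrophage genes (19.3) and for the B cell identity genes (5.34), and the other erythroid genes stay between 53.0 and 58.4 in all B cell libraries.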

How the data were processed

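RNA sequencing was analysed for 12 libraries, 3 per group, with groups taken from the labels. Per the labels, RNA from sorted cells was depleted of ribosomal RNA and made into stranded libraries with ERCC spike-ins, and the submitters' processing notes name Trim Galore, FastQC, STAR and mm10. The signal deposited by the authors, adjusted TPM, is TPM after a rescaling between libraries, with a lower and an upper bound for each value. Which quantifier and adjustment were used, and what level the bounds have, is not given in the sources used here. No value is 0, read counts were not used and depth is unknown. Some label fields call the material genomic DNA, while the protocol describes RNA. No source places a replicate in a single animal, and p-values measure the spread between pools.

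Testing covered the 12520 genes that reached a value of 1 in 3 or more libraries, with limma 3.58.1 in R 4.3.3 on log2(adjusted TPM + 1), a pseudocount that understates the change of low genes, a coefficient for each of the 4 groups and a variance that follows mean expression. The threshold was a Benjamini-Hochberg adjusted p of 0.05. The fits were tested on simulated data first. Other computations used Python 3.11.15, numpy 2.4.6, scipy 1.17.1, pandas 2.3.3 and matplotlib 3.10.9. Exact permutation tests were two-sided. The members and lists were chosen with earlier results of these data known. Named from the other lists were, by rule, the genes of highest mean. Gata1, Lgals3, Spic, Itgam and Pax5 are tested genes outside that rule, and further genes outside it are said to be so. Some genes of the lists or the rule are not reported here. For likeness, the 5 tested genes of mean at least 5 whose deviations from the 4 group means had the highest Pearson r with Hbb-bs or Lyz2 were taken, with the members left out. Coordinates come from GENCODE M21 on GRCm38. In T cells, same-numbered female and male libraries deviated together across genes (r of 0.72, 0.55 and 0.52), so a block on the number was tried. Alternatives covered pseudocounts, filters, scalings, the trend, array weights, the deposited bounds and each library left out.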

Additional observations from a re-analysis of the deposited data

Results flagged for a closer look

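Each of the 10 transcripts was examined for a library far from the rest among the 6 B cell and the 6 T cell libraries, on log2(adjusted TPM + 1). A gap to the nearest library of more than 0.625 of the whole range marked a library, which chance gives in about 1 in 20 groups, and 3 of the 20 groups had one. S100a8 in male T cell 5, at 1.26, stood above the other T cell libraries at 0.0384 to 0.179. S100a9 in male T cell 5, at 1.31, stood above the others at 0.00701 to 0.0393. Csf1r in female T cell 6, at 0.964, stood above the others at 0.0487 to 0.296. No B cell library was marked for any of the 10, and the causes were not tested.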

How the results depend on the processing

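Of the B against T cell differences, those of Cd68 and Hbb-bt kept their direction and their call in all 25 alternatives, with log2 differences of 0.35 to 0.84 and 1.71 to 2.64. That of Lyz2 did so too, at 2.44 to 4.21. Lyz2 reached the filter only with its B cell libraries, which favoured this direction, so its stable call is given as a description. The number of members past the threshold, 3 of 6, became 5 with array weights and 9 of 9 tested when all libraries were set to a total of 1000000, and ranged from 3 to 6 with each library left out in turn. Of all genes, 9804 of 12520 passed with array weights and 7108 of 13016 after that rescaling. In B cells, that rescaling made the count for females against males 4 of 9 members tested, with 44 of all 13016 genes passing. It removes the gene-specific variance (limma then gives each gene the trend's variance, with infinite prior degrees of freedom), shifts the median log2 difference of all genes by 0.35 and raises the B-higher part of all calls from 43.0% to 71.6%. By exact permutation on those rescaled values, 4 of 10 members had an unadjusted p under 0.05, as on the deposited scale. Of the uncalled values, Hbb-bs for females against males in T cells, -0.59, ran from -1.43 to 0.43 with 1 library left out, the latter without male T cell 5. Its difference between sex effects, -1.14, turned to 0.50 with array weights and ran from -2.88 without male B cell 2 to 0.37 without female B cell 1. Lyz2 with Cd68 in B cells turned to r = 0.77 after rescaling, and S100a8 with S100a9 there to -0.025 without the 2 libraries farthest from the median. The highest over the lowest library for the erythroid sum was 285-fold on the lower and 53.3-fold on the upper bounds, and 19.1-fold for the myeloid sum as a share of the total. Without a filter, 49 of 87 other-cell genes passed rather than 20 of 22. Of all genes, 24591 of 41128 passed without a filter and 9134 of 12520 with it. Some of the 22, such as Cybb, Gata1 and Ppbp, reached the filter through 1 cell type alone, which fixed their direction. The causes were not tested.

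The replicate block on the number left the count of members past the threshold for females against males at 0 in both cell types and changed no member's call there. With the T cell number as a random replicate block in the fit over all libraries, an alternative chosen after seeing the data (consensus correlation 0.48), the 3 members stayed past the threshold for B against T cells, with Hbb-bt at an adjusted p of 0.0254, and the T cell sex contrast called 34 of all genes rather than 13, and 3 rather than 0 for the difference between sex effects. In B cells the same-numbered libraries correlated at -0.17, -0.04 and -0.34, so the numbers are not shown to pair them. Without depths, no counting interval can be given, and the low values of S100a8, S100a9, Csf1r and Alas2 have wide bounds.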

Other observations

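Platelet genes were found in the B cell libraries. Of the platelet and megakaryocyte list, 3 genes reached the filter, each through B cells alone, so their direction was fixed by the filter and is given as a description. The chemokine Ppbp was at 2.64 to 10.9 in the B cell libraries, against 0.0648 or less in T cells (a log2 difference of 2.48), the chemokine Pf4 at 0.537 to 3.31 against at most 0.0316 (1.23), and the integrin Itga2b at 0.877 to 2.63 against at most 0.525 (0.82). Ppbp was highest in female B cell 2, at 10.9, and not in male B cell 1, at 4.05, where the globins were highest. Of the dendritic cell list, Zbtb46 was higher in T cells (difference -0.41, SE 0.11, limma adjusted p = 0.00449), and the other 4 genes tested reached the filter through B cells alone. Itgax was at 1.06 to 4.08 and Flt3 at 1.40 to 2.74 in B cells, against at most 0.499 and 0.198 in T cells. The killer cell gene Prf1, for perforin, was at 11.5 to 17.6 in the T cell libraries, against 1.42 or less in B cells. Gzma and Nkg7 of the list also reached higher values in T cells, but their ranges overlapped between the cell types. Gzma was at 0.433 to 0.699 in T cells and no higher than 0.589 in B cells. Nkg7 was at 0.0741 to 0.561 in T cells and no higher than 0.203 in B cells. Ncr1 and Klrb1c went the other way, at 0.0264 to 0.584 and 0.0950 to 0.248 in B cells. In T cells Ncr1 and Klrb1c were no higher than 0.0137 and 0.0415. Klrb1c was named after its values were seen. Pecam1, the one tested gene of the stromal and endothelial list, did not pass (difference 0.01, SE 0.06, limma adjusted p = 0.905).

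Among 8652 candidate genes, the 10 members left out, the deviations from group means most like those of Hbb-bs over the 12 libraries were those of Fam175b (r = 0.91), Rnaseh2b (0.90), Tmem260 (0.86), Man2a1 (0.86) and Mlh3 (0.85), all with small ranges, such as 15.2 to 20.6 for Fam175b. The other globins had r of 0.98 for Hba-a1, 0.98 for Hba-a2 and 0.96 for Hbb-bt, and Alas2 had 0.90. For Lyz2, genes among the 5 closest were Syk (0.96), Golga1 (0.95), Tox (0.94) and Adnp (0.94), and Csf1r had 0.80. These values describe 12 libraries that share a rescaling.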
